A study of Mus musculus with 12 samples.

Results

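The set described here holds 8 genes of the aryl hydrocarbon receptor (AHR) pathway and of xenobiotic metabolism, out of 32498 rows with a gene name in the tongue RNA-seq tables. They were chosen by name, as genes on which a plant polyphenol and an aromatic carcinogen could both act: the receptor Ahr, its feedback genes Ahrr and Tiparp, the cytochrome P450 genes Cyp1a1 and Cyp1b1, the aldehyde dehydrogenase Aldh3a1, the P450 reductase Por and the quinone reductase Nqo2. All 8 were found in all 12 libraries' tables. All mice were C57BL/6, bought at 5 weeks of age, and drank water with 100 µg/mL of the carcinogen 4-nitroquinoline 1-oxide (4NQO), which produces tongue tumors, for 16 weeks. From week 4 the mice received gallic acid (GA), a trihydroxybenzoic acid found in many plants, at 100 mg/kg by gavage 5 times per week, or the vehicle alone, so every mouse of both groups was exposed to 4NQO and no library comes from unexposed tongue. Total RNA of tongue, labelled as tumor and tumor-associated cells, gave 6 vehicle and 6 GA libraries. Each was taken as 1 mouse, although the labels name no animals, and if they were not separate mice the p-values measure only the spread between these samples.

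AHR is a receptor that binds planar aromatic compounds, tryptophan metabolites and several plant phenols. It waits in the cytoplasm with HSP90 and other chaperones, enters the nucleus when a ligand binds, pairs with ARNT and binds xenobiotic response elements (XRE) whose core reads GCGTG. Cyp1a1, Cyp1b1, Aldh3a1, Tiparp and Ahrr are known targets, and the products of the last 2 damp the response. POR passes electrons to every microsomal P450, and NQO2 reduces quinones with dihydronicotinamide riboside as its donor. 4NQO itself is activated by reduction of its nitro group, chiefly through NQO1, the quinone reductase related to NQO2.

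The stretch just upstream of the start site is printed for 4 of the genes, Cyp1a1 as the textbook AHR target, Cyp1b1 as the other P450 of its family, and Ahrr and Tiparp as the feedback genes. RefSeq's promoter table (GRCm38.p6) held entries for 6 of the 8 genes and none for Ahr and Aldh3a1. The windows are the 250 bases before the start, written 5′ to 3′ along the gene: chr9:57697363-57697612 on the + strand for Cyp1a1, chr17:79715062-79715311 on the - strand for Cyp1b1, chr13:74292332-74292581 on the - strand for Ahrr and chr3:65528197-65528446 on the + strand for Tiparp. Capitals mark the XRE core, GCGTG on the gene's strand or CACGC where it lies on the other.

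Cyp1a1: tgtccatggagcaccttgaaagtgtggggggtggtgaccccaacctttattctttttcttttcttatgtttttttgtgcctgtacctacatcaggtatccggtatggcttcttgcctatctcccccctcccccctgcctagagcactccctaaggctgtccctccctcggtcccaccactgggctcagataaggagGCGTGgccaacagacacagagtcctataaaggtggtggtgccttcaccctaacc

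Cyp1b1: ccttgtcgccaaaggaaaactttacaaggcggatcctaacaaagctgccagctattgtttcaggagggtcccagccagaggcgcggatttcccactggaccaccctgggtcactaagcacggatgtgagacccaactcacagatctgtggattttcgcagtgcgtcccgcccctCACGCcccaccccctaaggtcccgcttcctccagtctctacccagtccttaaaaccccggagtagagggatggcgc

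Ahrr: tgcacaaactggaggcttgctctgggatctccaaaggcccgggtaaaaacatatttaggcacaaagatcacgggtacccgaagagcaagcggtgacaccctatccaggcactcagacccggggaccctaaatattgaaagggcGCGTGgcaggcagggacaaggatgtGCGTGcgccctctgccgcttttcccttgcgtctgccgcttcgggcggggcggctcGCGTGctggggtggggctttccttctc

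Tiparp: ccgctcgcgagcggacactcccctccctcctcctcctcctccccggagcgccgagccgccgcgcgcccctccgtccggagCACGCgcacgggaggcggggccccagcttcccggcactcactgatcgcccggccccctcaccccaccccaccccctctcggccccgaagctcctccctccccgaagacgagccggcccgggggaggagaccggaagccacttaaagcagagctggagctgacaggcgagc

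Cyp1a1 had 1 core, 54 to 50 bases before its start, and Cyp1b1 had 1 on the other strand, 76 to 72 bases before it. Ahrr had 3, of which the nearest, 27 to 23 bases before the start, also matched the extended form TNGCGTG. Tiparp had 1, 170 to 166 bases before its start. In the windows not printed, Por had 3 cores, and each of the 2 start sites of Nqo2 had 1. Thus all 7 windows of the 6 genes held the core on at least 1 strand. Of 32851 windows of the same length in the table, 28.2% held at least 1 core, 2.77% held 3 or more, and 4.10% held the extended form. The core holds a CG, and CG counts in the windows of these genes ran from 2 (Nqo2) to 28 (Tiparp). The shares over the table were not matched for base composition. These matches are letters in a window and not measured binding. The well-known XRE cluster of Cyp1a1 lies further upstream than the printed stretch.

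Levels are given as FPKM (reads scaled to gene length and library size), brought to a common scale over the 12 libraries, so that they can be compared between genes. Recovered library totals were 18043202 to 21783946 reads in the vehicle group and 21249171 to 25184123 in the GA group, and levels of pairs of libraries had a Spearman correlation over genes of 0.888 to 0.971 within the vehicle group and 0.905 to 0.971 within the GA group. Keratins and the other oral epithelium markers were present in every library, as were skeletal muscle genes. Vehicle libraries 3 and 5 and GA library 2 stood apart by genes of the tongue glands, with 8079 to 26220 scaled FPKM of the gastric-type lipase gene Lipf against at most 0.498 in the other 9. Reads on 4 Y-linked genes were present in 4 vehicle libraries (1 to 4) and 1 GA library (1), and were at 0 in the other 7. Xist, a transcript of female cells, had 0 to 10 reads in the libraries with Y-linked reads and 7792 to 19157 in the other 7. By these genes the groups were unbalanced in sex, with 4 male libraries in the vehicle and 1 in the GA group, although the labels give no sex. The group differences were therefore also fitted without the gland libraries, without the libraries with Y-linked reads and with a term for Y-linked reads.

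The 8 genes spanned a wide range of levels (plot of levels by library). Aldh3a1 was the 56th most abundant of 23072 named genes above 0, with a mean of 690.5 scaled FPKM over the 12 libraries. Por followed with 25.4, Tiparp with 9.18, Ahr with 4.11, Nqo2 with 2.54, Cyp1b1 with 0.905, Cyp1a1 with 0.277 and Ahrr with 0.0922. The first 3 steps of this order held in 12 of 12 libraries. Ahr exceeded Nqo2, Nqo2 exceeded Cyp1b1 and Cyp1b1 exceeded Cyp1a1 in 11 of 12 each, and Cyp1a1 exceeded Ahrr in 7 of 12, so that those last 2 could not be ordered. Thus the reductase that serves the P450s was abundant, while the P450 genes Cyp1b1 and Cyp1a1 were 6th and 7th of the 8 genes.

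**Figure D1:**
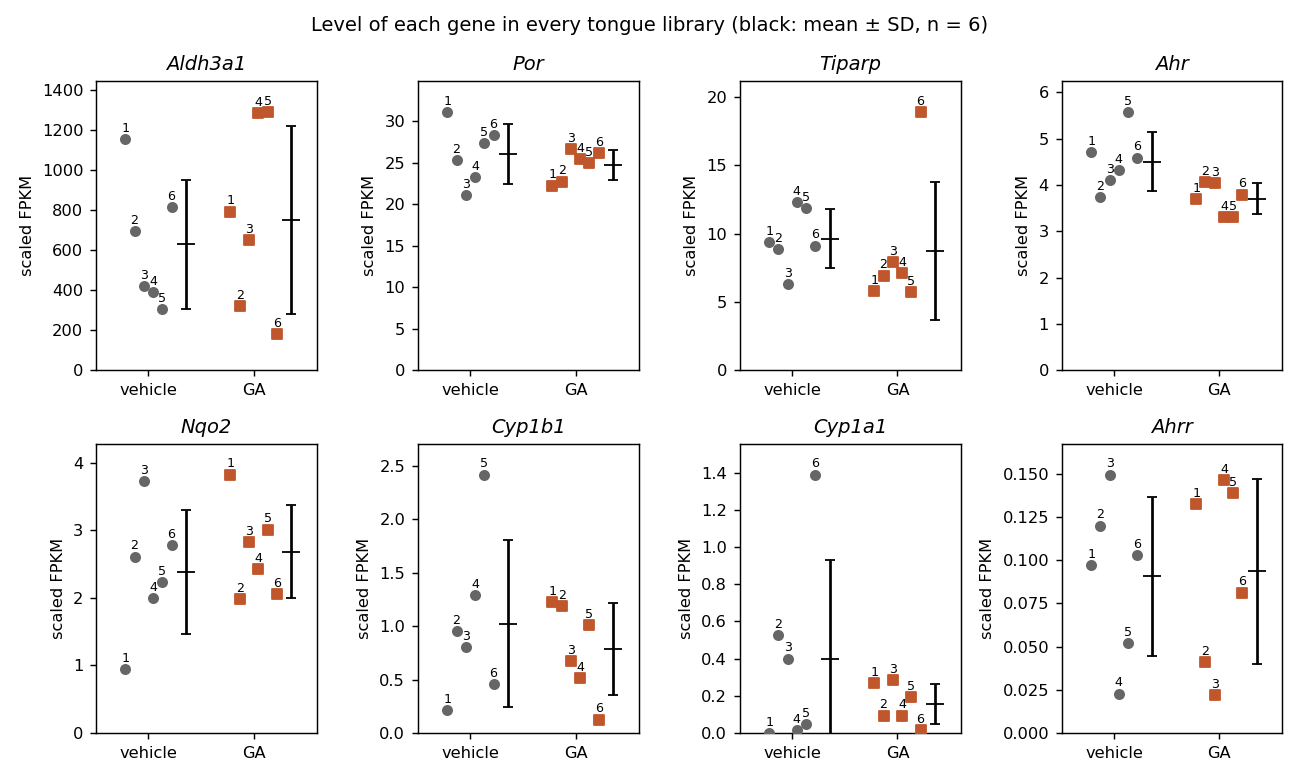
Scaled FPKM of the 8 genes in each tongue library, with a linear axis from 0 in each panel. Numbers are the replicate numbers, black marks the mean ± SD of 6 libraries, and the lower bar of Cyp1a1 in the vehicle group is cut at 0. Values of the vehicle and GA libraries overlap in every panel. In the Ahr panel 5 of 6 vehicle libraries lie above all 6 GA libraries.

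The comparison of the groups asks whether GA changed these genes in 4NQO-exposed tongue. None of the 8 genes passed the limits set for a call, which were 0.1 for the p adjusted by Benjamini and Hochberg's method and 0.58 for the size of the log2 fold change. Ahr itself had the smallest p of the set, with a level 0.829 times that of the vehicle group (95% interval 0.701 to 0.980). Cyp1a1, Cyp1b1, Tiparp and Por had fitted values below 0, Aldh3a1 and Nqo2 above 0, each with an interval that includes 0 (plot of fold changes). In limma on log2(scaled FPKM + 0.1), 7 of the 8 genes passed the filter of a mean of at least 0.1, and 0 of these were called, beside 0 of 16847 genes over the whole table (0%). Without adjustment, 1 of the 7 had a p below 0.05, beside 2.16% of all genes tested (364, of which 188 were higher and 176 lower with GA), and limma-voom on the recovered reads also called 0 of 16104 genes, with 329 at an unadjusted p below 0.05. At least 5 of 6 GA libraries lay below the vehicle median for 3 of the 7 (Ahr, Tiparp and Por), beside 16.1% of all genes. The groups did not overlap for 0 of the 7, beside 0.0653% of all genes. The fold changes are on a scale with a pseudocount, which weighs most on the genes with low values, here Cyp1a1, Cyp1b1 and Ahrr. For Cyp1a1 the log2 fold change was -0.36 on this scale, -0.02 with a pseudocount of 0.01 and -0.04 in limma-voom.

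**Figure D2:**
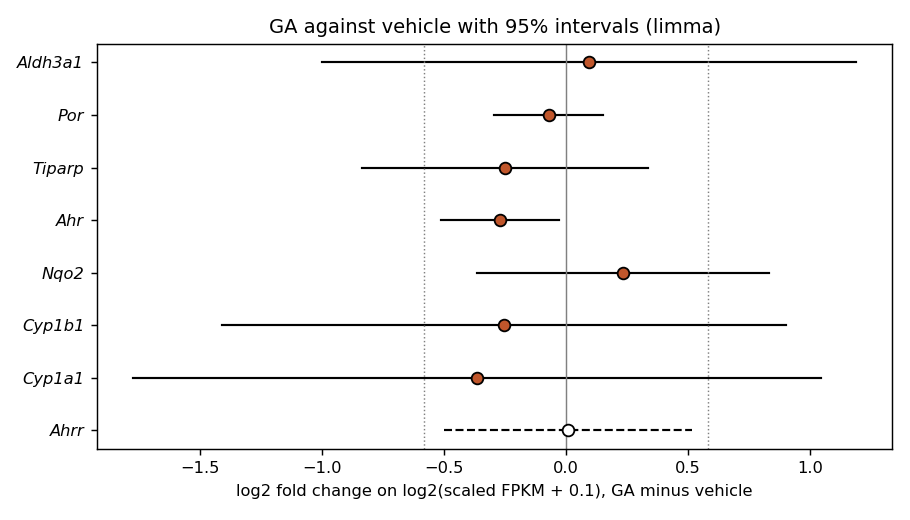
Fitted log2 fold change of each gene, GA minus vehicle, with its 95% interval from limma. Dotted lines mark the limit of 0.58 on either side of 0, and the open point with a dashed line is Ahrr, which lay under the filter and was fitted without one. The interval excludes 0 for Ahr alone (-0.51 to -0.03) and lies within the dotted lines for Ahr, Por and Ahrr. For Ahrr, whose mean lay below the pseudocount, this scale makes differences smaller.

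Ahr encodes the receptor (GRCm38, chr12:35497974-35535038, - strand). Vehicle libraries 1 to 6 had 4.71, 3.74, 4.11, 4.32, 5.58 and 4.59 scaled FPKM. GA libraries 1 to 6 had 3.69, 4.06, 4.04, 3.31, 3.31 and 3.79. All 6 GA libraries lay below the vehicle median, and vehicle library 2 was the only vehicle library within the GA range. The means were 4.51 ± 0.629 (SD, n = 6) with vehicle and 3.7 ± 0.334 with GA, from 420 to 767 reads per library. On the log2 scale the difference was -0.27 (SE 0.11, 95% interval -0.51 to -0.03). An exact permutation test over the 924 assignments of libraries gave p = 0.0152 (two-sided, smallest possible 0.00216), while limma's adjusted p over all genes was 0.999963, so the difference does not pass the correction. Its direction was the same in every alternative run. The difference was -0.25 among the 9 libraries without gland genes, where the interval of -0.51 to 0.0098 includes 0, and -0.45 among the 7 without Y-linked reads, of which 2 are vehicle libraries. Neutrophil markers were lower with GA in 12 of 12 genes (median log2 fold change -0.82, 0 called), with a summed level of 1120 to 2622 scaled FPKM in the vehicle and 236.7 to 1860 in the GA group, and Retnlg, Stfa2l1 and Clec4d at 0 in some libraries. Their mean log2 level did not separate the groups (exact permutation test, two-sided p = 0.266), and with it as a term the Ahr difference was -0.22. In bulk tissue, fewer cells that express a gene and less RNA per cell cannot be told apart.

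ARNT and the chaperones of the receptor were next examined. Of 9 genes listed for the complex, 5 had a fitted value above 0 and 4 below, with 0 called and a median log2 fold change of 0.0051, beside 0.0042 over all genes. Arnt, the DNA-binding partner, had 8.35 ± 1.33 scaled FPKM with vehicle and 7.39 ± 0.353 with GA (n = 6 each), and all 6 GA libraries lay below the vehicle median. Its log2 fold change was -0.16 (SE 0.11; exact permutation test, two-sided p = 0.136). Hsp90ab1, the HSP90 chaperone with the highest level in the list, had 502.0 ± 24.2 with vehicle and 554.4 ± 112.7 with GA. Ncoa1, a coactivator, had a log2 fold change of -0.17 (SE 0.13). The values of Arnt and of Ncoa1 overlapped between the groups.

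Ahrr encodes the AHR repressor, which competes with AHR for ARNT (chr13:74211118-74292331, - strand). It was close to the detection limit, with 5 to 32 reads per library. Its scaled FPKM in vehicle libraries 1 to 6 was 0.0970, 0.120, 0.150, 0.0227, 0.0522 and 0.103. In GA libraries 1 to 6 it was 0.132, 0.0411, 0.0218, 0.146, 0.139 and 0.0812. Low and high libraries occurred in both groups, and the log2 difference was 0.01 (exact permutation test, two-sided p = 0.976). Its mean lay just under the filter, so it entered only the fit without one, where the SE was 0.23. The fitted interval was -0.50 to 0.52. Because the mean of Ahrr lay below the pseudocount of 0.1, this scale makes differences smaller. The interval therefore does not bound the fold change of Ahrr without the pseudocount.

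Tiparp (chr3:65528410-65555518, + strand) encodes a mono-ADP-ribosyltransferase that marks AHR for loss. The vehicle libraries had 9.38, 8.87, 6.32, 12.3, 11.9 and 9.12 scaled FPKM, in order of replicate number. The GA libraries had 5.80, 6.93, 7.93, 7.08, 5.73 and 18.9. Thus 5 of 6 GA libraries lay below the vehicle median of 9.25, while GA library 6 was the highest of all 12. Group means were 9.64 ± 2.18 with vehicle and 8.73 ± 5.05 with GA (n = 6 each). The log2 fold change was -0.25 (SE 0.27, interval -0.83 to 0.34; exact permutation test, two-sided p = 0.426). GA library 6 decided the size of this value: without it the log2 fold change was -0.50 (SE 0.17, unadjusted p = 0.0118), with an adjusted p of 0.813 in limma. Exon bases shared with a gene on the other strand, 4931440P22Rik, made up 5.12% of Tiparp, and the strand setting of the authors' counting is not given in the sources used here.

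Cyp1a1 (chr9:57687928-57703824, + strand) encodes the P450 that oxidizes polycyclic aromatic compounds and is the classic readout of AHR activity. Scaled FPKM in vehicle libraries 1 to 6 was 0, 0.525, 0.400, 0.0155, 0.0484 and 1.39. In GA libraries 1 to 6 it was 0.267, 0.0934, 0.283, 0.0935, 0.193 and 0.0138. The vehicle group held the highest library (6, with 83 reads) and the lowest (1, with 0 reads, which allows up to 3 reads or 0.0583 scaled FPKM), and the GA group lay between them with 1 to 19 reads. Means were 0.396 ± 0.534 and 0.157 ± 0.107 (n = 6 each). The log2 fold change was -0.36 (SE 0.65, interval -1.77 to 1.04; exact permutation test, two-sided p = 0.602). Without vehicle library 6 it was 0.09, and without vehicle library 1 it was -0.69, so that single libraries set its sign and size. The related Cyp1a2, mainly a liver enzyme, had 1 read in GA library 2 and 0 in the other 11 libraries.

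Cyp1b1 (chr17:79701537-79715061, - strand), the family's form outside the liver and common in connective tissue cells, was measured with 19 to 315 reads per library. Vehicle libraries 1 to 6 had 0.212, 0.954, 0.804, 1.29, 2.42 and 0.453 scaled FPKM, and GA libraries 1 to 6 had 1.22, 1.19, 0.671, 0.511, 1.01 and 0.125. The spread within each group was larger than the distance between the group means, 1.02 ± 0.781 with vehicle and 0.788 ± 0.431 with GA (n = 6 each). The log2 fold change was -0.25 (SE 0.53, interval -1.41 to 0.90; exact permutation test, two-sided p = 0.680). It was 0.04 without vehicle library 5, 0.10 without GA library 6, -0.78 in the 7 libraries with no Y-linked reads and -0.04 in the 9 without gland genes. Over the 12 libraries the highest value was 19.4 times the lowest.

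Aldh3a1 (chr11:61207537-61218421, + strand) encodes an aldehyde dehydrogenase abundant in stratified epithelia such as cornea and tongue, where it oxidizes aldehydes from lipid peroxidation. Vehicle libraries 1 to 6 had 1153, 693, 421, 391, 304 and 814 scaled FPKM. GA libraries 1 to 6 had 791, 318, 651, 1283, 1289 and 178. The 2 highest libraries and the lowest were all GA libraries, and the vehicle libraries lay within the GA range. Means were 629.4 ± 321.9 with vehicle and 751.6 ± 468.8 with GA (n = 6 each). Its log2 fold change was 0.09 (SE 0.50, interval -0.998 to 1.19; exact permutation test, two-sided p = 0.877). With 8945 to 57188 reads per library, counting contributed little error beside the spread between libraries. Its sign turned in the 9 libraries without gland genes (-0.05), and leaving out 1 library gave values from -0.12 (without GA library 5) to 0.45 (without GA library 6).

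Por (chr5:135670033-135735326, + strand) was the steadiest gene of the set. Its scaled FPKM in vehicle libraries 1 to 6 was 31.1, 25.3, 21.1, 23.3, 27.4 and 28.3. In GA libraries 1 to 6 it was 22.2, 22.7, 26.6, 25.4, 24.9 and 26.1. The highest library was 1.47 times the lowest, and 3 of 6 vehicle libraries lay above all GA libraries. Its log2 fold change was -0.07 (SE 0.10, interval -0.29 to 0.15; exact permutation test, two-sided p = 0.457), and the interval corresponds to 0.816 to 1.11 times the vehicle level.

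Nqo2 (chr13:33964687-33988443, + strand) had 0.949, 2.61, 3.73, 2.0, 2.23 and 2.79 scaled FPKM in vehicle libraries 1 to 6. GA libraries 1 to 6 had 3.83, 1.98, 2.82, 2.43, 3.01 and 2.06. Apart from vehicle library 1 at the bottom, both groups covered nearly the same range. Between the groups the log2 fold change was 0.23 (SE 0.28, interval -0.37 to 0.83; exact permutation test, two-sided p = 0.496). It was 0.0043 without vehicle library 1, -0.04 in the 7 libraries with no Y-linked reads and 0.49 in the 9 without gland genes. Since 18.9% of its exon bases are shared with Serpinb6a on the other strand, reads of those 2 genes cannot be told apart there without a known strand setting. Nqo1, the better known quinone reductase and an AHR and NRF2 target, was far more abundant, with 125.2 ± 32.4 scaled FPKM with vehicle and 117.9 ± 45.9 with GA.

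Among 14 further AHR target genes, 13 were tested, of which 2 had a fitted value above 0 and 11 below, with 0 called and a median log2 fold change of -0.09 (plot of the gene lists). Over all genes 8584 were above 0 and 8263 below, with a median of 0.0042. Fitted values below 0 were also the more common in the marker lists of oral epithelium (9 of 10, median -0.21), tongue gland (8 of 8, median -1.53) and fibroblasts (7 of 8, median -0.35). The same held for neutrophils (12 of 12, median -0.82) and macrophages (6 of 9, median -0.12). Values above 0 were the more common for endothelium (7 of 7, median 0.14), skeletal muscle (7 of 9, median 0.49) and T cells (5 of 8, median 0.02). Each marker list had 0 called, and their part in the values of the AHR targets was not tested. Xdh, xanthine dehydrogenase, had 22.8 ± 4.08 scaled FPKM with vehicle and 16.9 ± 2.24 with GA (n = 6 each). All 6 GA libraries, at 14.1 to 20.1, lay below the vehicle median, and the vehicle libraries spanned 15.8 to 26.8, so the groups overlapped. Its log2 fold change was -0.42 (SE 0.14; exact permutation test, two-sided p = 0.0173). Slc7a5, a transporter of large neutral amino acids, had 45.8 ± 7.89 and 34.6 ± 9.61 and a log2 fold change of -0.44 (SE 0.19; exact permutation test, two-sided p = 0.0519). Both had an adjusted p of 0.999963 in limma. These were 2 of 13 with an unadjusted limma p below 0.05 in the lower direction, beside 1.04% of all genes. The most abundant gene of this list, the glutathione transferase Gsta1, had 189.5 ± 37.6 and 206.2 ± 123.9.

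Enzymes of tryptophan and kynurenine metabolism, only some of which form AHR ligands, were scarce. Of 9 listed, 3 passed the filter (Ido1, Kmo and Afmid), beside 16847 of 32498 named rows. Among the 3 enzymes, 1 had a fitted value above 0 and 2 below, and 0 were called. Afmid, which forms kynurenine, was the highest of the list with 0.321 ± 0.101 scaled FPKM with vehicle and 0.290 ± 0.134 with GA. For Ido1 the log2 fold change was -0.60 (SE 0.33; exact permutation test, two-sided p = 0.0909). The list of electron partners of P450s beside Por, which also holds the electron acceptor Hmox2 and the heme-binding Pgrmc1, had 8 of 10 fitted values above 0. The other 2 were below, with 0 called and a median of 0.07. Hmox2, the constitutive heme oxygenase, which takes electrons from POR, had 12.1 ± 0.820 with vehicle and 10.6 ± 0.889 with GA, 6 of 6 GA libraries below the vehicle median and a log2 fold change of -0.20 (SE 0.08; exact permutation test, two-sided p = 0.0173). Its adjusted p in limma was 0.999963. Cyb5r3, cytochrome b5 reductase, had a log2 fold change of 0.20 (SE 0.13), and the heme-binding partner Pgrmc1, the most abundant of the list, 0.05 (SE 0.16).

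Other phase I enzymes, which oxidize or reduce foreign compounds, had 12 of 28 fitted values above 0 and 16 below, and 0 were called. Adh7, the retinol and alcohol dehydrogenase of upper digestive epithelia, was the most abundant, with 232.5 ± 79.9 scaled FPKM with vehicle and 230.3 ± 98.5 with GA. Cyp26b1, which clears retinoic acid, had 8.70 ± 2.09 and 6.5 ± 1.83, a log2 fold change of -0.43 (SE 0.22; exact permutation test, two-sided p = 0.0952). Cyp4b1 had a log2 fold change of 0.49 (SE 0.35). Phase II enzymes, which conjugate the products, had 13 of 22 fitted values above 0 and 9 below, and 0 called. Gsta4, the glutathione transferase for lipid aldehydes, led them with 793.1 ± 160.0 and 674.2 ± 231.1. Mgst3 had the largest log2 fold change among the named genes of this list, 0.60 (SE 0.32; exact permutation test, two-sided p = 0.102), and that of Gstm5 was 0.32 (SE 0.20). The efflux pumps had 4 of 7 fitted values above 0 and 3 below, with 0 called. Of these, Abcc3 was the most abundant at 13.5 ± 2.85 and 14.2 ± 5.06, and the log2 fold changes of Abcc1 and Abcc5 were -0.23 (SE 0.14) and 0.21 (SE 0.18).

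**Figure D3:**
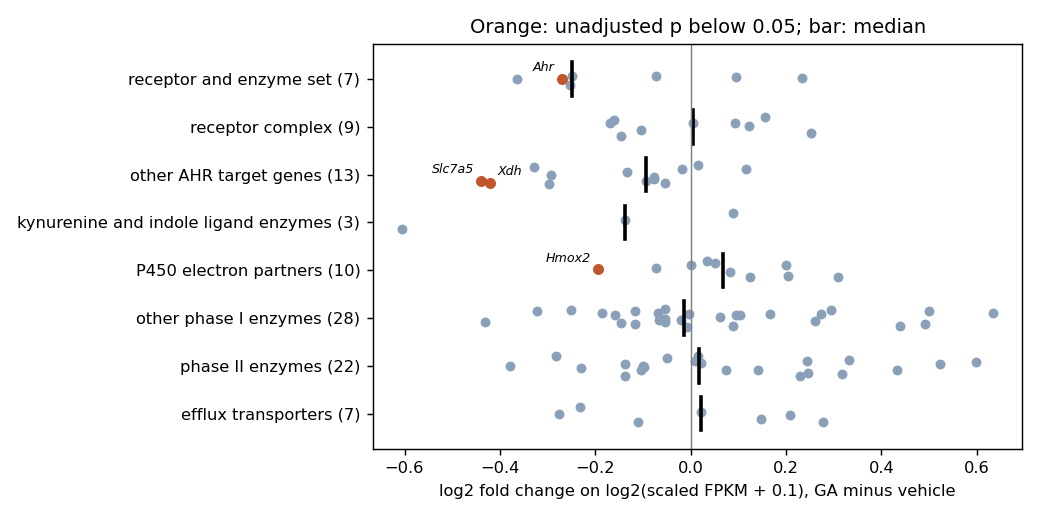
Log2 fold change, GA minus vehicle, of each tested gene in the 8-gene set and in the 7 lists of related genes, with the number tested in parentheses and the vertical position within a row without meaning. Black bars are medians and orange points are genes with an unadjusted limma p below 0.05, here Ahr, Slc7a5, Xdh and Hmox2, each below 0. No gene passed the adjusted limit.

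Correlations between the members over the libraries reached a Pearson r of 0.65, but none passed correction. Of the 21 pairs among the 7 tested genes, 0 had an adjusted permutation p below 0.05, in all 12 libraries and in the 9 without gland genes. The strongest pair was Cyp1a1 with Nqo2 (Pearson r = 0.65, Spearman rho = 0.75, permutation p = 0.0224 and 0.00677, adjusted 0.168 and 0.142). It was followed by Tiparp with Aldh3a1 at r = -0.64 (rho = -0.52, adjusted permutation p = 0.168 and 0.328). Leaving out the 2 libraries farthest from the median of the first gene gave r = 0.85 for the former and -0.28 for the latter. For the latter, r was -0.86 in the 9 libraries without gland genes and -0.79 in the 7 without Y-linked reads, so over all 12 it rests in part on the farthest libraries. Ahr and its targets thus showed no shared pattern that passed correction.

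Each of the 7 genes was also set beside 8 lists of cell type markers, as the mean log2 level of each list, which gave 56 relations. Cyp1b1 followed the fibroblast markers (plot of genes against markers), with r = 0.86 and rho = 0.91 (adjusted permutation p = 0.0162 and 0.00896). Within the vehicle and GA groups r was 0.94 and 0.76, among the 9 libraries without gland genes 0.79, among the 7 without Y-linked reads 0.85 and without the 2 farthest libraries 0.79. With macrophage, neutrophil and endothelium markers Cyp1b1 had r = 0.68, 0.66 and 0.66 (adjusted permutation p = 0.121, 0.121 and 0.125). Its r with endothelium markers was 0.95 among the 7 libraries without Y-linked reads. Within the GA group it was 0.86 with endothelium and 0.90 with skeletal muscle markers. All 8 fibroblast markers were above 0 in every library, with a summed level of 83.0 to 337.6 scaled FPKM in the vehicle and 49.2 to 239.9 in the GA group. Aldh3a1 and the oral epithelium markers had r = 0.75 and rho = 0.78 (adjusted permutation p = 0.0922 and 0.0836), a relation that does not pass the correction. With neutrophil markers Aldh3a1 had r = -0.62 and rho = -0.78 (adjusted permutation p = 0.141 and 0.0836). Nqo2 and the endothelium markers had r = 0.88 with an adjusted permutation p of 0.0487, but rho = 0.67 with 0.148, r = 0.51 without the 2 farthest libraries, 0.98 among the 9 without gland genes and 0.07 among the 7 without Y-linked reads. Within the vehicle and GA groups r was 0.91 and 0.82. Over all 12 libraries the relation thus rests in part on the farthest libraries and on those with Y-linked reads, and vehicle library 1 was the lowest in both measures. Nqo2 also had r = 0.70 with skeletal muscle markers (adjusted permutation p = 0.121), and 0.93 among the 9 libraries without gland genes. Por had r = -0.71 with skeletal muscle markers and 0.66 with oral epithelium markers, both with an adjusted permutation p of 0.121. Ahr had r = 0.58 with neutrophil markers (rho = 0.43, adjusted permutation p = 0.205 and 0.455) and 0.01 with oral epithelium markers.

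**Figure D4:**
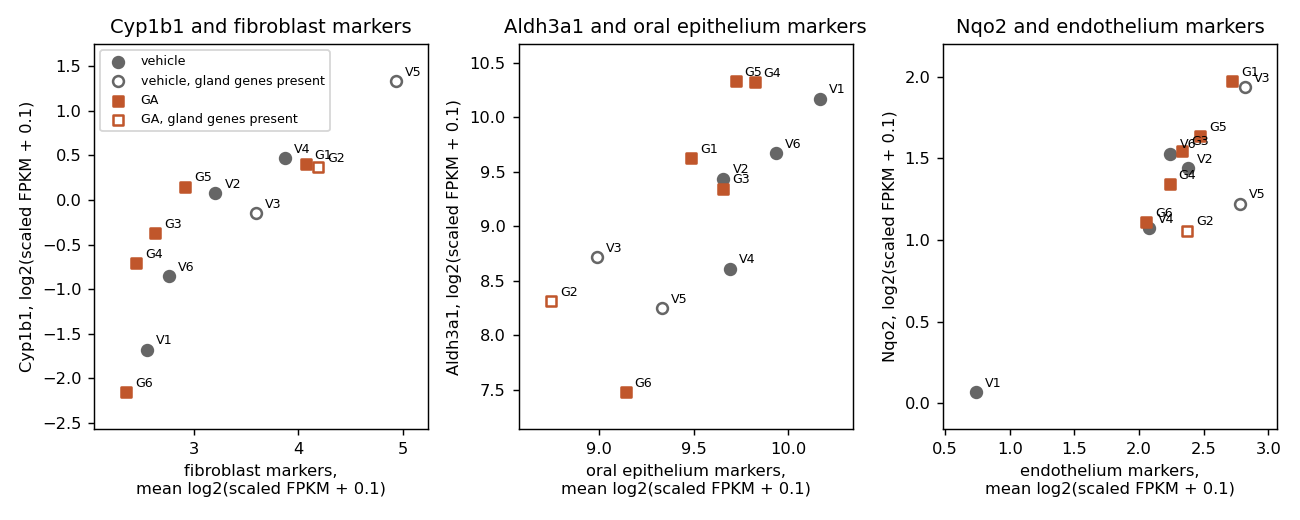
Level of Cyp1b1, Aldh3a1 and Nqo2 (vertical, log2 of scaled FPKM + 0.1) against the mean log2 level of fibroblast, oral epithelium and endothelium markers (horizontal) in the 12 libraries, V for vehicle and G for GA. Open symbols are the 3 libraries with gland genes. Cyp1b1 rises with the fibroblast markers in both groups (r = 0.86), and the endothelium panel holds 1 library, vehicle 1, far below the rest.

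As a description with no test, the genes with the most similar pattern were searched among the 12161 genes that averaged 1 scaled FPKM or more, by Pearson correlation over the same 12 libraries, whose points share depth and tissue makeup. Those closest to Cyp1b1 were Scarf2 (r = 0.96), Gpm6b (0.95) and Pdgfra (0.95), a growth factor receptor of fibroblasts that is also in the fibroblast marker list. For Aldh3a1 they were Parl, Tmem45a2 and Cab39 (each 0.96) and for Tiparp Ppp4r1, Washc4 and Hdac6 (each 0.97). Nqo2 was closest to Fars2 (0.96), Rasgrp3 (0.96) and Adgrf5 (0.95), and Por to Phlda2 (0.93), Bag4 (0.92) and Bdkrb2 (0.92). The nearest genes to Ahr were less alike, with Cpn1 at 0.87, Golph3 at 0.86 and Pxk at 0.85.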

How the data were processed

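RNA of tongue from 6 vehicle and 6 GA mice was sequenced with a SMARTER mRNA kit. Per the labels and the study's methods, HISAT2 placed reads on mm10, featureCounts assigned the unique ones to genes, and the authors deposited FPKM values, in which reads are scaled to gene length and library size. Of 55463 rows, 22965 (41.4%) carried no gene name and were left out. FPKM was brought to a common scale by trimmed means of M values without weights (30% of log ratios and 5% of levels trimmed, factors 0.914 to 1.08), and genes averaging 0.1 or more were tested with limma 3.58.1 (R 4.3.3, trend) on log2(scaled FPKM + 0.1), a step tested on simulated data. The study applied a count model with the same limits to its counts and reported genes that passed, Carmil2 and Fos among them. Those counts are not analysed here, so the number of genes called here is not the study's own result. Why the outcomes differ was not tested. Exact and 100000-resample permutation tests were run in numpy 2.4.6, with ranks from scipy 1.17.1. Reads per gene were recovered from the steps of low FPKM values with GENCODE M21 exon lengths shortened by a library-specific offset. Of values worth few reads, 97.6% to 98.3% came out whole within 0.02. The read counts bear on counting error only, while the limma intervals rest on the spread between libraries. The annotation version and strand setting of the counting are not given in the sources used here. Gene coordinates come from GENCODE M21 (GRCm38) and promoter sequences from RefSeq (GRCm38.p6). From each list, the most abundant gene and the 2 with the smallest p among those with a mean of at least 0.5 were named, with Nqo1, Arnt and Cyp1a2 (a further gene of the rule is not reported here); Ido1, Kmo, single marker genes and the genes called under an alternative were named after their values were seen. The members and lists were chosen with earlier results of these data known. Alternatives changed the pseudocount, filter, scaling, covariates, libraries and test.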

Additional observations from a re-analysis of the deposited data

Results flagged for a closer look

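Of 16 sets of 6 values (8 genes in each group), 1 was flagged (6.25%), where chance flags about 1 in 20. It was Tiparp in GA library 6, at 18.9 scaled FPKM against 5.73 to 7.93 in the other GA libraries. The gap to the next GA library was 0.833 of the group's range, above Dixon's 95% limit for 6 values. The same library had the lowest level in the GA group of Aldh3a1 (178.4), Cyp1b1 (0.125) and Cyp1a1 (0.0138).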

How the results depend on the processing

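Every alternative called 0 of the 8 genes. Over all genes the count moved from 0 to 2 in the 7 libraries without Y-linked reads (Gm25290 and Gm23390, both lower), ranged from 0 to 1 when 1 library was left out (Gm25290, without vehicle library 4), and was 328 with an unadjusted p below 0.1 and the same fold limit; these genes were named after their values were seen. The log2 fold change of Ahr lay between -0.45 and -0.22 in 14 alternatives and from -0.32 to -0.21 with 1 library left out, where its unadjusted p ran from 0.0150 to 0.0712; it was 0.0575 without gland libraries, 0.0608 without scaling and 0.0748 with a neutrophil term. Signs turned for Ahrr (-0.0095 with a pseudocount of 0.01, -0.0144 with a gland term, -0.15 with a neutrophil term and -0.0043 with a muscle term), Cyp1b1 (0.15 with a neutrophil term), Aldh3a1 (-0.0836 with a gland term, -0.28 with a neutrophil term, -0.0498 without gland libraries) and Nqo2 (-0.0373 without Y-linked libraries); the cause was not tested. With 1 library left out the ranges were -0.11 to 0.13 for Ahrr (5 turned), -0.69 to 0.0931 for Cyp1a1 (1), -0.56 to 0.10 for Cyp1b1 (2), -0.12 to 0.45 for Aldh3a1 (4), -0.50 to -0.16 for Tiparp, -0.13 to -0.02 for Por and 0.0043 to 0.38 for Nqo2. Without Y-linked libraries Cyp1a1 was -1.12, Cyp1b1 -0.78, Aldh3a1 0.20 and Por -0.15; without gland libraries Cyp1b1 was -0.04, Nqo2 0.49 and Ahrr 0.12. Genes at an unadjusted p below 0.05 numbered 364, but 854 without GA library 6, 806 without vehicle library 3, 679 with a muscle term, 662 with an epithelium term and 552 without a filter. A fit with the replicate number as a block called 0 genes (Ahr unadjusted p = 0.0940); same-numbered libraries had correlated deviations of -0.37 to 0.08 and none was closest to its own number, so the numbers do not pair the mice. The filter at 1 FPKM also removed Cyp1a1 and Cyp1b1. Ahrr, already under the main filter, entered neither that fit nor the voom fit. With 6 libraries per group, intervals of about 1 log2 unit or more on either side for Cyp1a1, Cyp1b1 and Aldh3a1 limit what could be detected.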
